A study of Homo sapiens with 16 samples.

Results

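The 79 genes described here encode proteins of the mitochondrial ribosome. They are the protein-coding rows of the count table whose symbol is MRPL or MRPS with a number and an optional letter, together with DAP3, and they make up 79 of the 60675 rows. By name, 49 belong to the large subunit (MRPL) and 30 to the small subunit (MRPS and DAP3). The RNA, selected by its poly(A) tail, came from H9, a human embryonic stem cell line in wide use, and in all 16 libraries the cells carried EGFP under the REX1 promoter. The cells grew without feeder cells on Matrigel in mTeSR1 medium and received pooled siRNAs. Knockdown groups of 3 biological replicates each were SALL4 and VRTN, harvested at 48 h, and DSCC1 and SEPHS1, harvested at 72 h. The controls were 2 libraries with a control siRNA (Control) and 2 with an siRNA against Renilla luciferase (Luciferase), and the labels give no harvest time for them. Enzymatically prepared siRNA pools from 1 supplier were used for SALL4, DSCC1, SEPHS1 and luciferase, the VRTN siRNA came from another, and the source of the Control siRNA is not given. The study asked how transcription changes when genes that these cells depend on are depleted, and for the ribosome genes the question is which of them, if any, differed in each knockdown.

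The mitochondrial ribosome translates the few messenger RNAs of the mitochondrial genome, which encode core subunits of the respiratory chain. Its ribosomal RNAs come from the mitochondrial genome, but its proteins are made from nuclear genes on cytosolic ribosomes and imported. Many are relatives of bacterial ribosomal proteins, and others are found only in mitochondria. Gene names do not always match the structure: the proteins of MRPS30 and MRPS18A sit in the large subunit in known structures, and that of MRPS36 is a component of the oxoglutarate dehydrogenase complex. The subunits are kept apart here by gene name.

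Library totals ran from 18597262 to 28662389 counts. Levels are CPM, counts scaled to a common library total, with TMM-scaled library sizes (factors 0.775 to 1.1567 of the library total), so they are levels relative to the bulk of the genes and not shares of the library's RNA, and a floor of 3 counts stood at 0.105 to 0.161 CPM of the library totals. In bulk RNA, fewer cells of a type and less RNA per cell cannot be told apart. SALL4 stood at 213 ± 21.1 CPM in SALL4 siRNA libraries, against 274 ± 25.3 CPM in controls (SD, n = 3 and 4), which is 77.9% of the controls and was not called (adjusted p = 0.0562, edgeR quasi-likelihood test). VRTN and SEPHS1 each fell to 14.9% of the controls in their own knockdown, and DSCC1 stood at 20.5% of a control level of 3.93 CPM, also not called (adjusted p = 0.486). Of 10 embryonic stem cell markers, 9 were above 1 CPM in every library, and ZFP42, the gene also called REX1, had 0 counts in all 16. The summed level of the 10 was 3044 to 3181 CPM in SALL4 libraries, below the 3350 to 3701 CPM of the controls. In the other knockdowns this sum overlapped the controls. Of 6 fibroblast markers 3 were above 1 CPM in every library, and their summed level, nearly all of it COL1A1 and THY1, was 783 to 1685 CPM in SALL4, 788 to 1183 CPM in VRTN, 1957 to 2202 CPM in DSCC1 and 1542 to 1837 CPM in SEPHS1 libraries, against 1815 to 2040 CPM in controls. Their part in the results was not tested. Of these 2 genes COL1A1 was lower, at 479 to 1250 CPM in SALL4 and 494 to 808 CPM in VRTN libraries, against 1534 to 1760 CPM in controls, and THY1 was not, at 265 to 371 and 263 to 346 CPM, against 219 to 274 CPM. COL1A2, also above 1 CPM in every library, did not fall with COL1A1. It had 62.2, 71.2 and 38.1 CPM in SALL4 and 56.6, 47.3 and 32 CPM in VRTN libraries, against 30.4 to 47.7 CPM in controls. Decorin (DCN), lumican (LUM) and COL3A1 were at or near 0 throughout. SALL4 replicate 3 stood apart from the other 2 SALL4 libraries, and not in the ribosome genes alone. NANOG had 76.1 CPM in it, against 158 and 143 CPM in the other 2, and COL1A1 had 479, against 1250 and 1069 CPM. POU5F1 did not differ in this way, at 234, against 234 and 243 CPM. Results that rest on this library are given with and without it.

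Most mitochondrial ribosomal protein genes were expressed in every library. Of the 79, 69 exceeded 1 CPM in all 16 libraries, and 55 averaged over 10 CPM in the controls. MRPS24 was left out by the filter on low counts, with 0 counts in the controls and at most 15 counts in any library, which leaves 78 tested genes, 49 of the large and 29 of the small subunit. Its exons overlap the readthrough gene URGCP-MRPS24 on the same strand over 23.2% of its exonic bases. To compare levels between genes, CPM was divided by the length of the principal transcript in kb. On that scale the highest control levels were 117 ± 5.75 CPM per kb for MRPS2, a small subunit protein with a bacterial relative, 112 ± 13.4 for MRPL4, whose bacterial relative lines the exit tunnel, 110 ± 5.01 for MRPL37, a protein found only in mitochondria, and 103 ± 3.62 for MRPL10, which anchors the stalk (SD, n = 4). Neighbours among these 4 did not differ beyond their SDs, and a gap separated them from MRPS15, the next gene, at 64.7 ± 4.78 CPM per kb. MRPS15, MRPS18A at 63.5 ± 7.35 and MRPS30 at 62.9 ± 2.75 CPM per kb lay within each other's spread. DAP3, a GTP-binding protein of the small subunit, ranked 17 at 31.3 ± 3.04 CPM per kb. At the low end were MRPL33 at 0.44 ± 0.486, MRPL46 at 0.386 ± 0.232, MRPL53 at 0.352 ± 0.256 and MRPS28 at 0.287 ± 0.413 CPM per kb, which overlap. Each of these genes shares exonic bases with another gene on the same strand, 21.1, 11.3, 45.2 and 35.8% in the same order. The effect of this on their counts was not tested. MRPL42 stood at 1.44 CPM per kb on a transcript of 15582 bases, so its place in the order depends on that transcript.

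**Figure D1:**
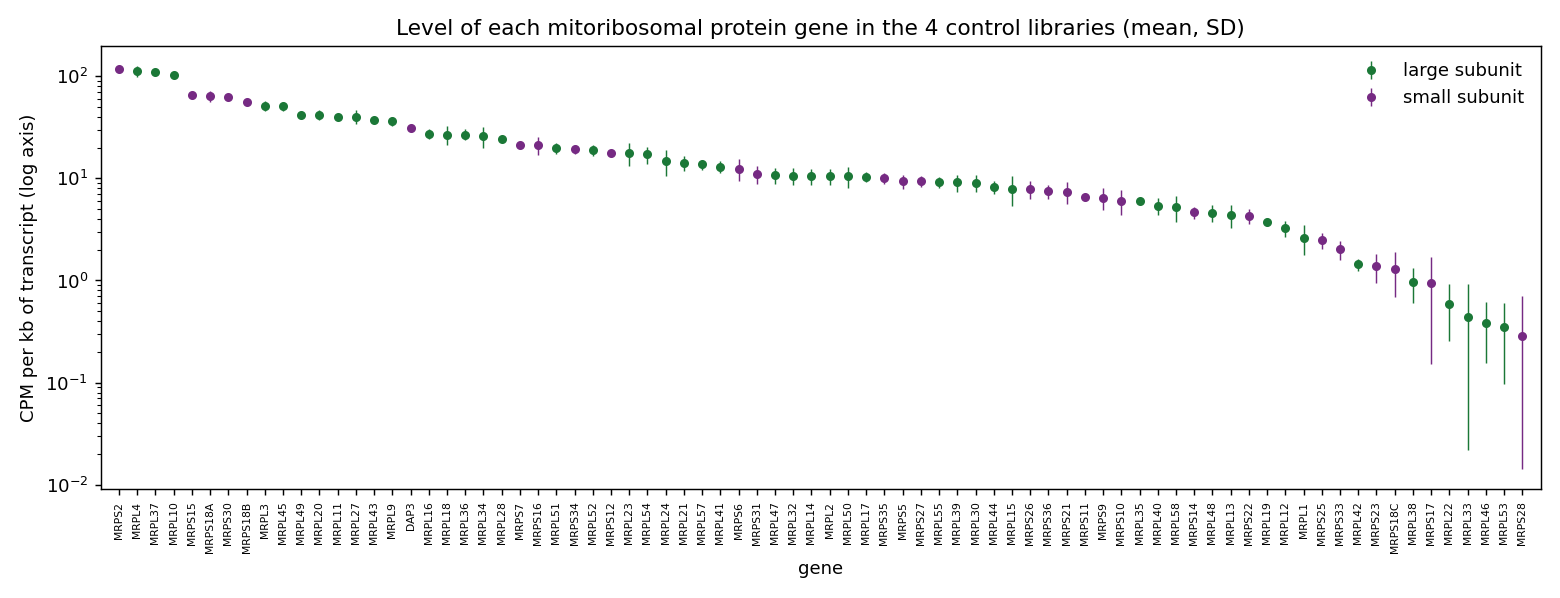
Level of each tested mitochondrial ribosomal protein gene in the 4 control libraries, in CPM per kb of transcript on a log axis, in descending order and coloured by subunit. Points are means and bars the SD, shortened at the lower end where they would reach 0. MRPS24 is at 0 and is not drawn. The order runs from 117 CPM per kb for MRPS2 to 0.287 for MRPS28.

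Promoter sequences were read from RefSeq's GRCh38.p14 table, which spans 250 bases before to 50 after each start, and 70 of the 79 genes matched. Factors known to act on genes of mitochondrial proteins include NRF1 and, of the ETS family, GABP, and YY1 is often found at such promoters. Each promoter was searched on both strands for GCGCA and GCGC with any 1 base between them (NRF1), CCGGAAG (ETS) and AAGATGGC (YY1). The ETS letters occurred in 41.4% of the members' promoters, against 17.2% of 12546 promoters of tested genes and 10.7% of all 27305. YY1 letters were found in 28.6% of them, against 4.8% and 3.03%. For NRF1 the shares were 11.4%, against 10.5% and 6.28%. The end of the ETS motif is also the start of the YY1 motif, but their matches overlapped in 0 of the 70 promoters (0%), against 0.0399% of the promoters of tested genes. Of the 6 genes that passed the test in any comparison below, the 3 shown here had a match. MRPL10 and MRPL21 have no entry. Capitals mark the matched letters on either strand, each sequence runs 5′ to 3′ on the plus strand, and a match is a description of the letters, not a bound site. In MRPL30 (chr2:99180934-99181233) the NRF1 match starts 116 bases and the ETS match 145 bases before the start. In MRPS12 (chr19:38930694-38930993) the ETS match starts 5 bases and the YY1 match 212 bases before it, and in MRPS30 (chr5:44808697-44808996) the YY1 match starts 13 bases after it.
MRPL30: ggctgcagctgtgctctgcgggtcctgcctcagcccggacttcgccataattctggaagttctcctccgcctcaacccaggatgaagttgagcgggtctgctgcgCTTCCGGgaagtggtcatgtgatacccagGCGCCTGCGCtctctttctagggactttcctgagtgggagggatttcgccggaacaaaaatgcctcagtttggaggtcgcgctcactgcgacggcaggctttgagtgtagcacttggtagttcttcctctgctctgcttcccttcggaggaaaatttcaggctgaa
MRPS12: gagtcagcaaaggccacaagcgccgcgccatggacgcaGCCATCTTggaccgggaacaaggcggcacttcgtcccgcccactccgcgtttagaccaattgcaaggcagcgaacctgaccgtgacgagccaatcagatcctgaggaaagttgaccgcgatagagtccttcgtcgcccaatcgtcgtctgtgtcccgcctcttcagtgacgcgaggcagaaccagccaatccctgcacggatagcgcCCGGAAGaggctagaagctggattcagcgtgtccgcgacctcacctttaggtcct
MRPS30: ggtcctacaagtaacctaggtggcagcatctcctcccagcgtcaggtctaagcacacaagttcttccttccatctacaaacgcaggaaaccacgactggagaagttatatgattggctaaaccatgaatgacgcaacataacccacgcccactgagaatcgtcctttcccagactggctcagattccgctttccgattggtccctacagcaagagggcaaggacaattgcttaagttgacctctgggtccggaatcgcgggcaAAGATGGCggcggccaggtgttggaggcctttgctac
None of the 3 motifs' letters occurred in the window of MRPS6 (chr21:34073328-34073627).

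Summed over both subunits, the TMM-scaled level of these genes was 95.9% of the controls in SALL4, 92.8% in VRTN, 106.1% in DSCC1 and 102.0% in SEPHS1 libraries. As shares of the library totals the same sums were 95.0, 88.7, 94.9 and 83.5% of the controls, with VRTN and SEPHS1 libraries below every control. For the large subunit the TMM-scaled sum was 1385, 1418 and 1626 CPM in SALL4 libraries, 1421, 1469 and 1520 in VRTN libraries, 1644, 1647 and 1672 in DSCC1 libraries and 1540, 1549 and 1626 in SEPHS1 libraries, against 1611 and 1516 in Control and 1525 and 1511 CPM in Luciferase libraries. Here the 3 DSCC1 libraries lay above all 4 controls, and the other groups overlapped them. For the small subunit the sum was 826, 885 and 992 CPM in SALL4 libraries, 821, 796 and 871 in VRTN libraries, 972, 990 and 964 in DSCC1 libraries and 908, 977 and 986 in SEPHS1 libraries, against 926 and 931 in Control and 927 and 968 CPM in Luciferase libraries. The 3 VRTN libraries lay below all 4 controls, and the other groups overlapped them. This sum goes by gene name and includes MRPS30 and MRPS18A, whose proteins sit in the large subunit. The large subunit sum leaves these genes out, so the overlap of its VRTN libraries with the controls also goes by gene name. MRPS30, MRPS18A and MRPS2 were below every control in all VRTN libraries, as given below. The median log2 fold change of the small subunit genes with VRTN siRNA was 0.04. Sums by structure were not computed, and how far the small subunit sum rests on MRPS30, MRPS18A and MRPS2 was not tested. SALL4 replicate 3 was the highest of its group in both subunits and the other 2 SALL4 libraries were below every control.

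The position of the sums against the controls depended on scaling in VRTN, DSCC1 and SEPHS1 libraries. As a percent of the control mean, the small subunit sum of VRTN libraries was 88.4% with TMM, 88.8% with DESeq2's size factors, 88.1% with upper quartile scaling and 84.6% with library totals alone, below all controls each time. By gene name that sum includes MRPS30 and MRPS18A. Their large subunit sum overlapped the controls with TMM, DESeq2's factors and library totals, and lay below them all with upper quartile scaling (1416 to 1506 CPM in VRTN libraries, against 1508 to 1594 CPM in controls). The large subunit sum of DSCC1 libraries was 107.4, 108.1 and 108.4% with the first 3 and overlapped the controls at 96.0% with library totals. SEPHS1 libraries overlapped the controls with the first 3 and lay below all of them, at 83.5%, with library totals. On the TMM scale, messenger RNAs of the mitochondrial genome summed to 385755 to 552321 CPM in SEPHS1 libraries, 310586 to 421958 CPM in DSCC1 libraries and 229305 to 307314 CPM in controls. These values are not shares of the library totals, and the part of these RNAs in the ribosome sums was not tested. The ratio of large to small subunit sums was 1.56 to 1.85 over the 16 libraries.

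**Figure D2:**
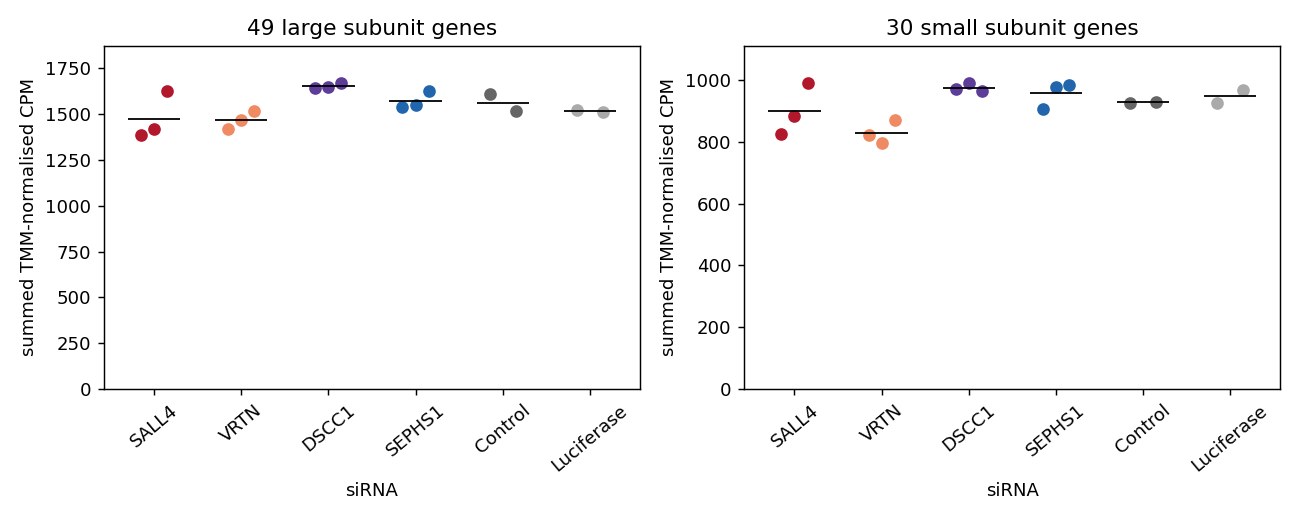
Summed TMM-normalised CPM of the 49 large subunit genes and of the 30 small subunit genes in each library, by siRNA. Points are libraries and lines are group means. DSCC1 libraries (1644 to 1672 CPM) lie above all controls (1511 to 1611 CPM) for the large subunit, and VRTN libraries (796 to 871 CPM) lie below all controls (926 to 968 CPM) for the small subunit. Subunits go by gene name, so MRPS30 and MRPS18A are counted in the small subunit.

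Gene by gene, few of the 78 tested members differed from the controls. A gene was called at a Benjamini-Hochberg adjusted p under 0.05 over all 19772 tested genes in edgeR's quasi-likelihood test, each knockdown (n = 3) against both control groups together (n = 4). With SALL4 siRNA 2 of 78 fell and none rose, where 2.98% of all tested genes were called (1.85% higher, 1.13% lower). With VRTN siRNA 2 fell and none rose, where 1.13% of all genes were called (0.445% higher, 0.683% lower). DSCC1 siRNA gave no called member, where 0.0455% of all genes were called, all of them higher. With SEPHS1 siRNA 1 rose and none fell, where 1.53% of all genes were called (0.602% higher, 0.931% lower). Between knockdowns, 2 members were higher with SALL4 than with VRTN siRNA (2.44% of all genes called, 1.73% higher and 0.703% lower with SALL4), none differed between DSCC1 and SEPHS1 siRNA (0.268% of all genes called, 0.238% higher and 0.0303% lower with DSCC1), and none differed between Control and Luciferase (0% of all genes called).

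Before adjustment, a p under 0.05 was reached by 12 members with SALL4 siRNA (15.4%, against 13.1% of all tested genes), by 13 with VRTN (16.7%, against 9.4%), by 5 with DSCC1 (6.41%, against 5.84%) and by 16 with SEPHS1 siRNA (20.5%, against 12.8%). Members are expressed above the average gene, with a median of 16.5 CPM against 4.24, and among 5626 genes at 4 log2 CPM or more the shares were 26.1, 18.4, 10.4 and 23.3% in the same order. That cut lies near the members' own median, so many members fall below it. Here and below, neither set of genes is matched to the members in level. Between knockdowns a p under 0.05 was reached by 14 members for SALL4 against VRTN siRNA (17.9%, against 12.3% of all genes and 23.4% of those at 4 log2 CPM or more), by 5 for DSCC1 against SEPHS1 siRNA (6.41%, against 9.58 and 14.6%) and by 0 for Control against Luciferase (0%, against 1.07 and 0.818%). DESeq2 called no member for DSCC1 against controls, DSCC1 against SEPHS1 or Control against Luciferase, and neither did limma-voom. For DSCC1 against controls DESeq2 gave an adjusted p to only 2413 genes, and a member without one could not be called.

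The median log2 fold change over the 78 members was -0.02 with SALL4, 0.05 with VRTN, 0.10 with DSCC1 and 0.14 with SEPHS1 siRNA, against 0.02, 0.02, 0.00 and -0.02 over all tested genes. By subunit it was -0.03 and -0.02 with SALL4, 0.09 and 0.04 with VRTN, 0.11 and 0.04 with DSCC1 and 0.14 and 0.01 with SEPHS1 siRNA, the large subunit first. Members that were higher numbered 38 with SALL4, 42 with VRTN, 49 with DSCC1 and 45 with SEPHS1 siRNA. These medians were not stable. Leaving out 1 library moved them between -0.07 and 0.05 with SALL4, 0 and 0.11 with VRTN, 0.06 and 0.12 with DSCC1 and 0.05 and 0.16 with SEPHS1 siRNA. Without SALL4 replicate 3 the SALL4 median was -0.07, or -0.01 for the large and -0.13 for the small subunit. With an offset for transcript length and GC content the medians were 0.00, -0.01, 0.07 and 0.01 in the same order of knockdowns, and the small subunit median with VRTN siRNA was -0.13. With the replicate block they were -0.10, 0.04, 0.02 and 0.06, and with limma-voom -0.07, 0.06, 0.10 and 0.02. The members' transcripts were shorter than average, at a median of 1472 bases against 2733. The 95% interval of the change lay within a 2-fold change in either direction for 54, 60, 61 and 56 of the 78 members in SALL4, VRTN, DSCC1 and SEPHS1 libraries, and within a 1.5-fold change for 27, 25, 30 and 25.

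**Figure D3:**
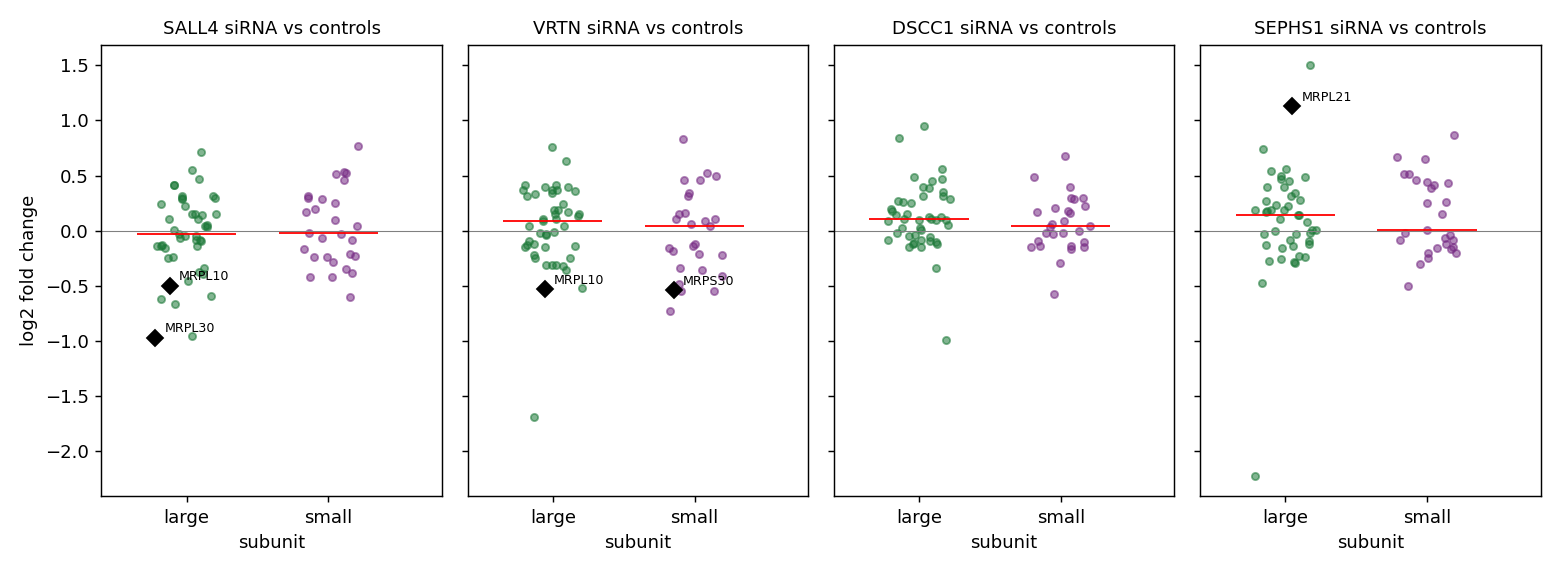
Log2 fold change of 74 mitochondrial ribosomal protein genes in each knockdown against the controls, by subunit. Points are genes, black diamonds are called genes and red lines are medians over all 78 tested genes, of which 4 near the floor are not drawn. Most points lie within 1 log2 unit of 0, and MRPL10, MRPL30, MRPS30 and MRPL21 carry the 5 calls.

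MRPL10 and MRPL30 fell with SALL4 siRNA. MRPL10 (ENSG00000159111, chromosome 17, 47823272 to 47831534, minus strand, GRCh38) encodes the protein at the base of the stalk that recruits translation factors. It had 111, 116 and 148 CPM in SALL4 libraries, against 186 and 172 CPM in Control and 174 and 178 CPM in Luciferase libraries. All 3 SALL4 libraries lay below all 4 controls, and replicate 3 was the nearest to them. The log2 fold change was -0.50 ± 0.11 (SE, 95% interval -0.74 to -0.27, adjusted p = 0.00764). MRPL30 (ENSG00000185414, chromosome 2, 99181079 to 99197626, plus strand), whose promoter is shown above, encodes a relative of a bacterial large subunit protein. It had 11.4, 8.59 and 15.7 CPM in SALL4 libraries, against 26.5 and 26.8 CPM in Control and 17.5 and 23.3 CPM in Luciferase libraries, again with no overlap. Its log2 fold change was -0.97 ± 0.25 (adjusted p = 0.0225).

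Without SALL4 replicate 3 the log2 fold change was -0.63 for MRPL10 and -1.21 for MRPL30 (adjusted p = 0.000503 and 0.00435). Both calls needed SALL4 replicates 1 and 2: without replicate 1 the adjusted p was 0.082 for MRPL10 and 0.0999 for MRPL30, and without replicate 2 it was 0.0913 and 0.222. Against Luciferase alone the adjusted p was 0.0636 for MRPL10 and 0.271 for MRPL30, and against Control alone it was 0.0391 and 0.0265. With only the groups compared it was 0.0635 and 0.0453. MRPL30 shares 19.5 and 13.1% of its exonic bases with other genes on its own strand and has 1 named pseudogene. How such reads were handled is not given, so its count may hold reads of these genes or lack some of its own. MRPL10 overlaps no other gene and has no named pseudogene.

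Other members with small p values in SALL4 libraries did not pass the adjustment in edgeR's test. Of those listed here, limma-voom called MRPL28, MRPS6, MRPL35, MRPS18A and MRPL9 (adjusted p = 0.023, 0.0237, 0.0469, 0.0497 and 0.0153). Over all 19772 tested genes limma-voom called 801 higher and 490 lower in SALL4 libraries, against 366 and 224 by edgeR. MRPL28, a relative of a bacterial large subunit protein, had 54.1, 65.6 and 54.0 CPM in SALL4 libraries, against 44.2 and 39.7 CPM in Control and 43.3 and 39.9 CPM in Luciferase libraries, with no overlap between them (log2 fold change 0.47, adjusted p = 0.109). For MRPS6 the values were 22.7, 23.1 and 16.3 CPM in SALL4 libraries, against 9.38 and 10.7 CPM in Control and 16.3 and 12.9 CPM in Luciferase libraries (log2 fold change 0.77, adjusted p = 0.136). MRPL35 had 8.54, 14.8 and 18.8 CPM in SALL4 libraries, against 20.9 to 23.6 CPM in controls (log2 fold change -0.66, adjusted p = 0.157). MRPS18A, MRPS25 and MRPS30 had log2 fold changes of -0.38, 0.53 and -0.23 (adjusted p = 0.163, 0.377 and 0.422). In all, SALL4 libraries lay above every control for 5 members and below every control for 9, or 17.9% of the 78, where 13.7% of all tested genes did so (6.82% above, 6.83% below), and 21.6% of the genes at 4 log2 CPM or more. Without SALL4 replicate 3, 5 members were called lower and none higher: MRPL35, MRPL9 and MRPS18B joined MRPL10 and MRPL30, while over all 19618 genes tested in that fit 586 were called higher and 338 lower, against 366 and 224 with all libraries. MRPL9 had 28.0, 27.3 and 51.8 CPM in SALL4 libraries, against 51.7 and 47.4 CPM in Control and 40.2 and 47.7 CPM in Luciferase libraries, so that replicate 3 alone was at the level of the controls. It was chosen for display after its values were seen.

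With VRTN siRNA, MRPL10 and MRPS30 fell. MRPL10 had 132, 119 and 117 CPM in VRTN libraries, against the same 4 controls at 172 to 186 CPM, with no overlap (log2 fold change -0.53 ± 0.11, adjusted p = 0.00965). Since the SALL4 and VRTN comparisons share their controls, the 2 results for MRPL10 are not independent. MRPS30 (ENSG00000112996, chromosome 5, 44808925 to 44820428, plus strand), which despite its name has its protein in the large subunit, had 76.0, 80.6 and 61.8 CPM in VRTN libraries, against 110 and 107 CPM in Control and 106 and 99.0 CPM in Luciferase libraries. The groups did not overlap, and VRTN replicate 3 was the lowest. Its log2 fold change was -0.54 ± 0.12 (95% interval -0.78 to -0.29, adjusted p = 0.0147), and it overlaps no other gene and has no named pseudogene.

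The MRPS30 call ended without VRTN replicate 3 (adjusted p = 0.149) and the MRPL10 call without replicate 2 (0.0666) or replicate 3 (0.0638). Against Luciferase alone the adjusted p was 0.0783 for MRPL10 and 0.13 for MRPS30, and against Control alone it was 0.0508 for both, with log2 fold changes of -0.50 to -0.58.

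Among the members that edgeR's test did not call with VRTN siRNA, MRPS2 had 146, 141 and 162 CPM in VRTN libraries, against 181 and 201 CPM in Control and 189 and 198 CPM in Luciferase libraries, without overlap (log2 fold change -0.36, adjusted p = 0.107). MRPS2 was called lower by DESeq2 (adjusted p = 0.00885) and limma-voom (0.0165). MRPS12, a protein of the decoding region of the small subunit, had 14.4, 14.6 and 14.7 CPM in VRTN libraries, against 21.7 and 23.3 CPM in Control and 20.7 and 19.9 CPM in Luciferase libraries, also without overlap (log2 fold change -0.55, adjusted p = 0.229). MRPL12, whose protein forms the flexible stalk on MRPL10, had 1.06, 1.34 and 0.699 CPM in VRTN libraries, against 2.47 to 3.78 CPM in controls (log2 fold change -1.69, adjusted p = 0.425), but 68.2% of its exonic bases also lie in another gene on the same strand. MRPL52 at 48.0, 45.0 and 51.4 CPM was above the controls' 33.9 to 44.5 CPM (adjusted p = 0.403), and MRPS18A and MRPL45, which holds the ribosome near the inner membrane, had log2 fold changes of -0.34 and -0.31 (adjusted p = 0.38 and 0.492). VRTN libraries lay above every control for 7 members and below every control for 11, or 23.1%, where 12% of all tested genes did so (5.27% above, 6.68% below), and 20.3% of the genes at 4 log2 CPM or more.

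The direct comparison of SALL4 with VRTN siRNA, both harvested at 48 h, involves no control library. MRPS6 and MRPS12 were higher with SALL4 than with VRTN siRNA. MRPS6 (ENSG00000243927, chromosome 21, 34073224 to 34143034, plus strand), a relative of a bacterial small subunit protein, had 22.7, 23.1 and 16.3 CPM in SALL4 libraries, against 6.85, 6.94 and 12.2 CPM in VRTN libraries. The groups did not overlap, and the difference was 1.25 ± 0.29 on the log2 scale (SE, adjusted p = 0.0122). For MRPS12 (ENSG00000128626, chromosome 19, 38930548 to 38933162, plus strand) the values were 25.8, 25.5 and 27.1 CPM in SALL4 libraries, against 14.4, 14.6 and 14.7 CPM in VRTN libraries, a log2 difference of 0.84 ± 0.21 (adjusted p = 0.018). For both genes the 4 controls, at 9.38 to 16.3 CPM for MRPS6 and 19.9 to 23.3 CPM for MRPS12, lay between the mean levels of the 2 knockdowns. The siRNA pools of these groups also differ in how they were made, and this cannot be told apart from their target.

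Without SALL4 replicate 3 the log2 differences were 1.41 for MRPS6 and 0.83 for MRPS12 (adjusted p = 0.00335 and 0.0242). Leaving out 1 library ended the MRPS12 call for 5 of the 6 SALL4 and VRTN libraries and the MRPS6 call for 4, with adjusted p values up to 0.0731 and 0.0979. MRPS6 shares 6.35% of its exonic bases with SLC5A3 and 6.84% with AP000317.2, both on the same strand, and has 2 named pseudogenes. MRPS12 shares 16.3% with SARS2 on the opposite strand.

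MRPL21 rose with SEPHS1 siRNA. MRPL21 (ENSG00000197345, chromosome 11, 68891276 to 68903835, minus strand), a relative of a bacterial large subunit protein, had 25.6, 21.9 and 14.6 CPM in SEPHS1 libraries, against 10.5 and 10.9 CPM in Control and 9.49 and 7.32 CPM in Luciferase libraries. All SEPHS1 libraries lay above all controls, with replicate 3 the nearest, and the log2 fold change was 1.13 ± 0.24 (95% interval 0.64 to 1.62, adjusted p = 0.0093). In the other knockdowns it had 13.3, 13.9 and 14.4 CPM with SALL4, 12.1, 14.5 and 11.2 with VRTN and 12.3, 18.1 and 24.5 CPM with DSCC1 siRNA. None of these passed the test, although all of these libraries too were above the highest control. The SEPHS1 call ended without SEPHS1 replicate 1 (adjusted p = 0.0699) and against Control alone (adjusted p = 0.187). MRPL21 overlaps no other gene and has no named pseudogene.

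Several further members stood apart from the controls in SEPHS1 libraries without passing the adjustment. MRPS18A had 41.5, 53.4 and 47.7 CPM in SEPHS1 libraries, against 64.7 and 60.9 CPM in Control and 65.5 and 78.8 CPM in Luciferase libraries (log2 fold change -0.50, adjusted p = 0.06). MRPS15, a relative of a bacterial small subunit protein, had 79.5, 93.5 and 91.9 CPM in SEPHS1 libraries, against 63.9 and 72.0 CPM in Control and 63.9 and 60.7 CPM in Luciferase libraries (log2 fold change 0.44, adjusted p = 0.0643). MRPL47, a relative of a bacterial protein near the exit of the peptide tunnel, had 25.3, 18.0 and 29.8 CPM in SEPHS1 libraries, against 15.8 and 10.7 CPM in Control and 15.9 and 15.9 CPM in Luciferase libraries (log2 fold change 0.74, adjusted p = 0.0765). In each of these 3 genes the groups did not overlap. DESeq2 called all 3, with adjusted p values of 0.021, 0.00309 and 0.0373, and also MRPL22 as higher and MRPL12 as lower (0.0395 and 0.0132). Over all 17688 genes with an adjusted p, DESeq2 called 242 higher and 327 lower in SEPHS1 libraries, against 119 and 184 of 19772 by edgeR. Lower in the order of p, MRPL17 (31.9, 26.8 and 30.8 CPM, against 18.6 to 23.4 CPM in controls), MRPL22 (5.53, 5.29 and 5.08 CPM, against 0.959 to 3.26 CPM) and MRPS21 (20.0, 15.1 and 16.4 CPM, against 8.45 to 13.0 CPM) lay above every control, and MRPS10 (19.8, 16.6 and 22.9 CPM, against 9.08 to 16.9 CPM) overlapped them. In all, SEPHS1 libraries lay above every control for 12 members and below every control for 3, or 19.2%, where 13% of all tested genes did so (5.25% above, 7.76% below), and 23.1% of the genes at 4 log2 CPM or more.

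No member was called with DSCC1 siRNA. MRPL21 came nearest, at a log2 fold change of 0.95 ± 0.24 (adjusted p = 0.254), and with no filter on low counts it was called (adjusted p = 0.0274). MRPS10, a small subunit protein with a bacterial relative, had 22.6, 20.1 and 17.9 CPM in DSCC1 libraries, against 13.9 and 9.08 CPM in Control and 10.6 and 16.9 CPM in Luciferase libraries, with no overlap (log2 fold change 0.68, adjusted p = 0.519). MRPL57, found only in mitochondria, had 36.1, 40.1 and 44.8 CPM in DSCC1 libraries, against 34.4 and 26.2 CPM in Control and 32.0 and 30.5 CPM in Luciferase libraries, again with no overlap (log2 fold change 0.39, adjusted p = 0.774). MRPL47, MRPL4, MRPS22, MRPS26 and MRPS11 had log2 fold changes of 0.47, 0.25, -0.57, 0.49 and 0.30, with adjusted p values of 0.843 or more. DSCC1 libraries lay above every control for 8 members and below every control for 1 (MRPL12), or 11.5%, where 9.1% of all tested genes did so (4.61% above, 4.49% below), and 14.6% of the genes at 4 log2 CPM or more.

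**Figure D4:**
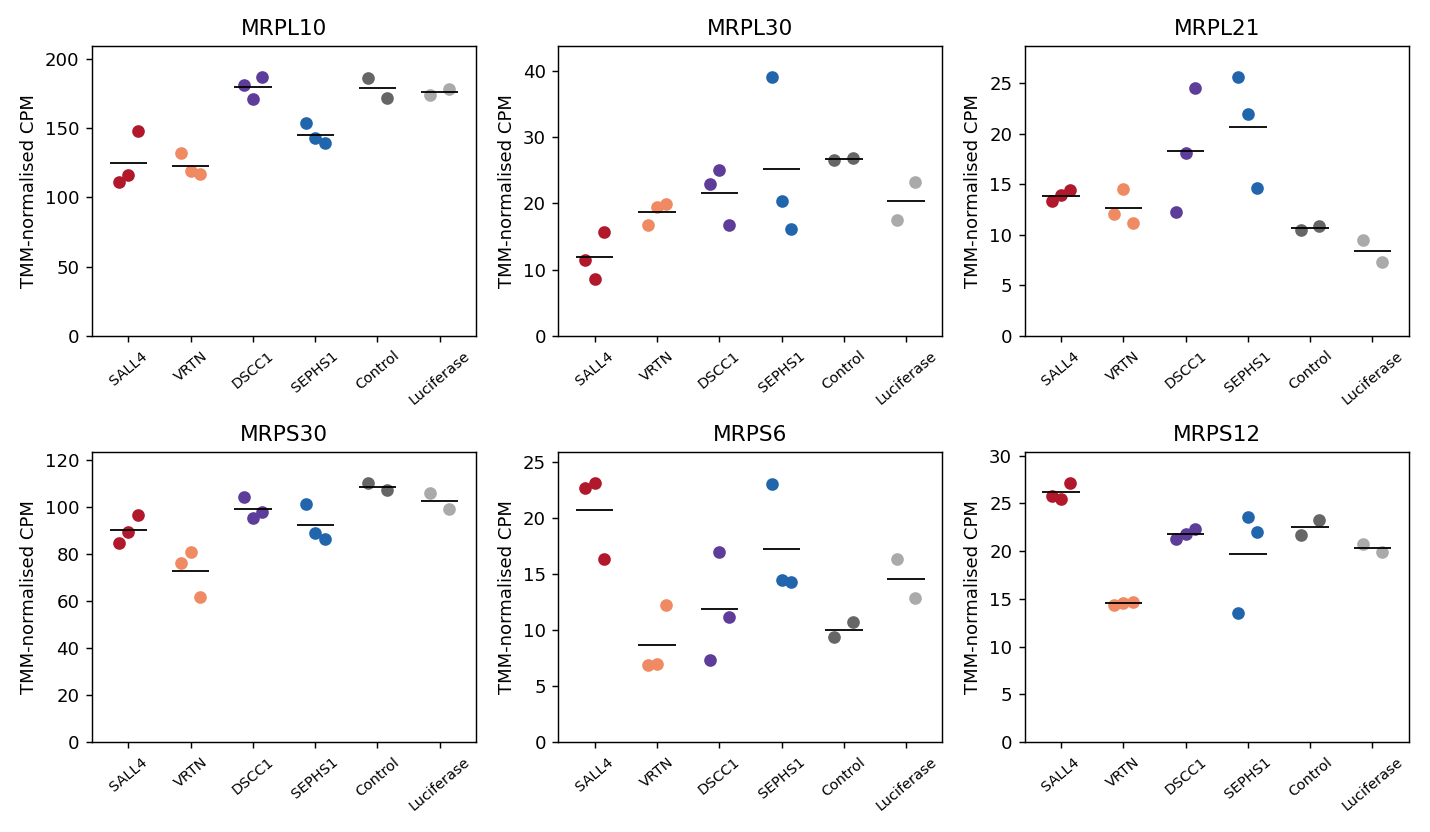
Level of the 6 genes that passed the test in any comparison, as TMM-normalised CPM in each library, by siRNA. Points are libraries and lines are group means. MRPL10 is lowest with SALL4 and VRTN siRNA, MRPL30 with SALL4 and MRPS30 with VRTN siRNA, and MRPL21 is highest with SEPHS1 siRNA (14.6 to 25.6 CPM, against 7.32 to 10.9 CPM in the controls). MRPS6 and MRPS12 are higher with SALL4 than with VRTN siRNA.

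Beyond the called genes, 2 patterns ran across groups that share the same controls. MRPL10 had 154, 143 and 139 CPM in SEPHS1 libraries, below all controls but not called (log2 fold change -0.29, adjusted p = 0.241), and 181, 171 and 187 CPM in DSCC1 libraries. MRPS18A had 46.9, 51.8 and 56.5 CPM with SALL4 and 49.0, 52.0 and 58.7 CPM with VRTN siRNA, below the controls' 60.9 to 78.8 CPM, while DSCC1 libraries with 65.1, 63.0 and 54.1 CPM overlapped them. Its exons overlap RSPH9 on the opposite strand over 47% of their bases. DAP3 was near its control level in all groups, with 56.3, 62.6 and 66.5 CPM in SALL4, 53.6, 54.2 and 60.3 in VRTN, 67.1, 78.8 and 62.3 in DSCC1 and 46.6, 55.7 and 72.1 CPM in SEPHS1 libraries, against 67.9 and 57.6 CPM in Control and 63.5 and 72.5 CPM in Luciferase libraries. Its log2 fold changes of -0.08, -0.22, 0.09 and -0.17 had 95% intervals that ran from -0.51 at the lowest to 0.38 at the highest. MRPL37, the member with no bacterial relative among the 4 highest, had 146 to 193 CPM over all 12 knockdown libraries, against 157 to 173 CPM in controls.

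The 4 members under 1 CPM on average, MRPL33, MRPL46, MRPL53 and MRPS28, gave no usable fold. MRPL53 had 0 counts in all 3 SEPHS1 libraries, against 0 to 0.646 CPM in controls, of which one was also at 0. MRPL46 had 0.925, 0.782 and 1.8 CPM in DSCC1 libraries, against 0.102 to 0.68 CPM in controls.

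Of the genes that work with the mitochondrial ribosome, few passed the test in the same comparisons. Among 17 mitochondrial translation factors, TRMU, which modifies mitochondrial transfer RNAs, rose with SALL4 siRNA, at 36.3 ± 2.49 CPM in SALL4 libraries, against 22.7 ± 1.83 CPM in controls (log2 fold change 0.68 ± 0.16, adjusted p = 0.00994), and no other factor was called in any knockdown. None of the 29 ribosome assembly and ribosomal RNA modification genes, 20 mitochondrial aminoacyl-tRNA synthetases and 17 genes of mitochondrial DNA transcription and replication was called in any of the 4 knockdowns by edgeR. At an unadjusted p under 0.05 the counts were 2, 1, 0 and 2 for assembly and modification, 6, 1, 0 and 1 for the synthetases and 2, 2, 0 and 3 for transcription and replication, in SALL4, VRTN, DSCC1 and SEPHS1 libraries. As shares these were 6.9, 3.45, 0 and 6.9%, then 30.0, 5.0, 0 and 5.0%, then 11.8, 11.8, 0 and 17.6%, against 13.1, 9.4, 5.84 and 12.8% of all tested genes and 26.1, 18.4, 10.4 and 23.3% of those at 4 log2 CPM or more. In SALL4 libraries DESeq2 called 1 synthetase and limma-voom 3, all lower, and each of these tools called 1 transcription or replication gene lower, but neither called any of the 3 lists in the other knockdowns. Over all genes with an adjusted p in SALL4 libraries, DESeq2 called 373 of 15585 lower and limma-voom 490 of 19772. DESeq2 gave an adjusted p to only 10319 genes with VRTN and 2413 with DSCC1 siRNA, and the rest could not be called. The smallest p by edgeR among the genes of the 3 lists belonged to TRMT10C, which processes mitochondrial transfer RNAs, in SALL4 libraries (log2 fold change -0.94, adjusted p = 0.0737). The synthetases had medians of -0.14 with SALL4 and -0.15 with VRTN siRNA, against 0.02 over all genes in both. Further subunits with other names, AURKAIP1, CHCHD1, PTCD3 and GADD45GIP1, were not called by any of the 3 tools either, and 1 of them, in VRTN libraries, had an unadjusted p under 0.05. Among 10 regulators of mitochondrial biogenesis, MYC fell with SALL4 siRNA, at 121 ± 36.8 CPM in SALL4 libraries, against 195 ± 24.7 CPM in controls (log2 fold change -0.69 ± 0.14, adjusted p = 0.00336). With VRTN and SEPHS1 siRNA the smallest p by edgeR was that of PPARGC1B (log2 fold change -0.99 and -0.94, adjusted p = 0.0967 and 0.102). With DSCC1 siRNA it was that of PPRC1 (0.27, adjusted p = 0.774). DESeq2 and limma-voom each called 1 regulator lower with SALL4 siRNA, and DESeq2 1 lower with VRTN siRNA. Over all genes edgeR called 1.13% lower with SALL4 siRNA, and DESeq2 258 of 10319 with VRTN siRNA.

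The same test gave the following counts for the cytosolic ribosome and the respiratory chain. Over all genes 1.85, 0.445, 0.0455 and 0.602% were called higher with SALL4, VRTN, DSCC1 and SEPHS1 siRNA, and of the 5626 genes at 4 log2 CPM or more it was 257, 73, 9 and 105 genes. Of 80 cytosolic ribosomal protein genes 9 rose with SALL4, 2 with VRTN, 4 with DSCC1 and 19 with SEPHS1 siRNA by edgeR, and none fell (1, 0, 1 and 2 were lower at an unadjusted p under 0.05). DESeq2 called 1 lower with SEPHS1 siRNA and limma-voom 1 lower with SALL4 siRNA. Their median log2 fold changes were 0.16, 0.21, 0.13 and 0.29, with RPL23 the largest of the called ones in SEPHS1 libraries (1.74 ± 0.23, adjusted p = 1.56e-05). Of 74 tested nuclear-encoded respiratory chain subunits 5, 1, 1 and 3 rose and none fell by edgeR (2, 1, 0 and 0 were lower at an unadjusted p under 0.05), with medians of 0.24, 0.13, 0.13 and 0.24. DESeq2 called 1 of them lower with SALL4 siRNA, and limma-voom 2 with SALL4 and 1 with VRTN siRNA. ATP5MF, a subunit of ATP synthase, stood at 33.7 ± 15.5 CPM in SEPHS1 libraries, against 10.9 ± 1.46 CPM in controls (adjusted p = 4.86e-05). Of the 13 messenger RNAs of the mitochondrial genome, which the mitochondrial ribosome translates, 0, 0, 1 and 11 rose by edgeR (1, 3, 10 and 12 were higher at an unadjusted p under 0.05) and 0, 0, 0 and 8 by DESeq2, with medians of 0.06, 0.24, 0.46 and 0.73. The difference between these lists and the members was not tested. These lists differ from the members in precision too: the median SE was 0.11 for cytosolic ribosomal proteins and 0.18 for respiratory chain subunits, against 0.22 to 0.23 for the members.

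**Figure D5:**
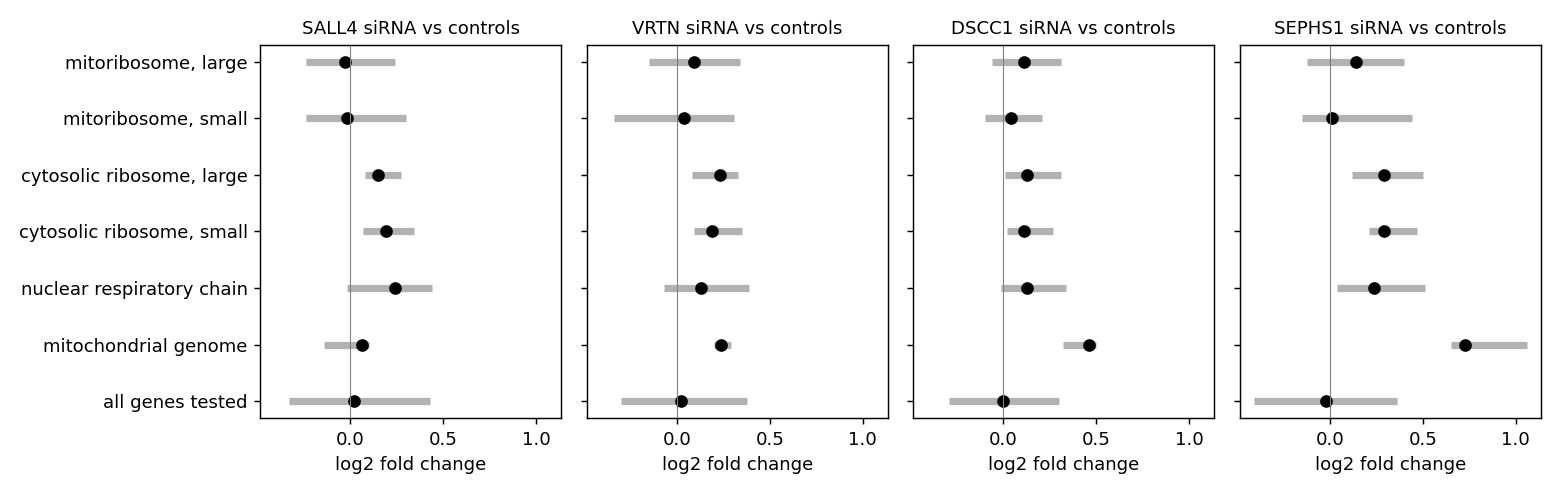
Median log2 fold change (points) and the range between the lower and upper quartiles (grey bars) of 6 gene lists and of all tested genes, in each knockdown against the controls. The mitochondrial ribosome lists have medians between -0.03 and 0.14, and the messenger RNAs of the mitochondrial genome reach 0.73 with SEPHS1 siRNA.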

How the data were processed

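Polyadenylated RNA libraries (Lexogen SENSE kit, 80 bp single-end reads on a NextSeq) from H9 cells treated with 30 to 50 nM siRNA were sequenced, per the labels. The labels' protocols mention 3 to 4 days of growth, while the sample labels give harvest at 48 or 72 h. The authors deposited raw counts per gene, and the submitters' processing notes name STAR 2.4.0.1, HTSeq 0.9.1 and GRCh38. The annotation release, the strand setting and the handling of multi-mapped reads are not given in the sources used here. Without a stated strand setting, reads of overlapping genes on opposite strands may not be told apart.

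Row names are Ensembl IDs. Of 60675 rows, 56558 took a symbol from a gene name table and 497 from GENCODE 29, and 3620 had none. All 16 count columns matched 1 sample each, and 0 columns were left unused. edgeR 4.0.16 in R 4.3.3 was run with its default filter on low counts (19772 rows kept, 40903 left out), TMM scaling, 1 fit over the 6 siRNA groups and the quasi-likelihood test. Each knockdown was compared with the average of the Control and Luciferase groups, p-values were adjusted by Benjamini-Hochberg over all tested rows, and the threshold was 0.05. The common dispersion was 0.347. The labels call the 3 knockdown libraries biological replicates. Where nothing says that libraries came from separate cultures, as for the controls, p-values measure only the spread between these libraries. The floor is 3 counts per library and covers counting error only. Levels per kb use the APPRIS principal transcript of GENCODE 29, or else the longest.

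The members and the gene lists were chosen with earlier results of these data known. The genes named are, in each knockdown, the called members and the 4 large and 4 small subunit members with the smallest p. DAP3, the 5 members with the highest and the 5 with the lowest level, members left out by the filter, members called between knockdowns, and genes with the smallest p of the other lists complete the rule. WBSCR16, listed among the assembly genes, matched no row. Alternatives were other scalings and filters, the replicate number as a block, a length and GC offset (natural splines with 4 degrees of freedom), fits with the compared groups only, single control groups or replicates, each library left out, DESeq2 1.42.0, and limma 3.58.1 (voom with sample quality weights). The other scalings of the summed levels were chosen after seeing the data. The fits were tested on simulated counts.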

Additional observations from a re-analysis of the deposited data

Results flagged for a closer look

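Of the results, 3 stood out and are given as values. MRPL47, a large subunit gene, had 10.7 CPM in Control replicate 2, against 15.8, 15.9 and 15.9 CPM in the other 3 control libraries. Its gap to the nearest of them was 0.986 of the whole range, above Dixon's 95% critical value for 4 samples, among 25 members screened in this way, and chance flags about 1 in 20 groups. MRPS6 and MRPS12 differed between the SALL4 and VRTN knockdowns by a direct test. The log2 difference was 1.25 for MRPS6 (adjusted p = 0.0122, edgeR quasi-likelihood test) and 0.84 for MRPS12 (adjusted p = 0.018), with all 3 SALL4 libraries above all 3 VRTN libraries for both genes.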

How the results depend on the processing

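The counts of called members are small, so a change of 1 gene moves them. With SALL4 siRNA, 2 members were called, and the count was 4 with the replicate block and length and GC offset together, 1 with only the groups compared, 0 against Luciferase alone, 1 against replicate 1 or replicate 2 of the controls and 7 with limma-voom. With VRTN siRNA, also 2, it was 0 against Luciferase alone or Control alone, 1 against replicate 1 and 0 against replicate 2 of the controls, and 3 with DESeq2, limma-voom or the block. With DSCC1 siRNA, 0, it was 1 with no filter. With SEPHS1 siRNA, 1, it was 2 with DESeq2's size factors, upper quartile scaling, no filter, the stricter filter, the length and GC offset, and the block with that offset, 0 against Control alone and 6 with DESeq2. For SALL4 against VRTN, 2, it was 4 with no filter, the block, the offset or DESeq2, 5 with the block and offset, and 1 with only the groups compared. Some of these settings test fewer libraries or genes, and otherwise the cause was not tested.

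Leaving out 1 library gave 0 to 5 members with SALL4, 0 to 2 with VRTN, 0 with DSCC1, 0 to 3 with SEPHS1 siRNA, 0 to 5 for SALL4 against VRTN, and 0 in both other comparisons. SALL4 calls numbered 0 without SALL4 replicate 1 or 2 and 5 without replicate 3. VRTN calls numbered 1 without VRTN replicate 2 and 0 without replicate 3. SEPHS1 calls numbered 0 without SEPHS1 replicate 1, 3 without SALL4 replicate 1 or 3, and 2 without Control replicate 1, Luciferase replicate 2, SEPHS1 replicate 2 or VRTN replicate 3. SALL4 against VRTN gave 0 without SALL4 replicate 1 or 2 or VRTN replicate 2, 1 without VRTN replicate 1, 5 without SALL4 replicate 3 and 4 without Luciferase replicate 1. Where a control group was reduced to 1 library, that library was assumed to vary like the others.

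Replicate numbers did not pair the samples throughout: same-numbered deviations correlated at -0.316 to 0.363 over 5526 genes. The highest values were 0.363 for SALL4 with VRTN replicate 3 and 0.338 for Luciferase with Control. Between pairs of knockdowns 0 to 4 of 6 libraries correlated best with their own number, a check that leaves out the controls. Over all genes the block gave 820 calls with SALL4, 283 with VRTN, 15 with DSCC1 and 270 with SEPHS1 siRNA, against 590, 223, 9 and 303 without it. Whether some same-numbered libraries share a batch was not tested. The replicate block alone gave 3 members with SALL4, 3 with VRTN and 1 with SEPHS1 siRNA. Over 34 pairs of a named member and a comparison, 951 of 1012 alternative values kept direction and side of the threshold, 29 passed it, 32 lost it and 0 changed direction. Most of these pairs were not called in the main fit, so a kept side mostly means still not called. The 32 losses could come only from the called pairs. Many of the fits leave out a library that is not in the comparison. These counts therefore do not measure how stable the calls are.

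Over all genes, SALL4 calls numbered 590, but 1291 with limma-voom, 924 without SALL4 replicate 3 and 236 against Luciferase alone. VRTN calls numbered 223, but 417 with DESeq2 and 89 against Luciferase alone. DSCC1 calls numbered 9, all higher, but 99 with no filter (55 higher, 44 lower) and 53 with DESeq2 (51 higher, 2 lower). SEPHS1 calls numbered 303, but 569 with DESeq2 and 103 against Control alone. For SALL4 against VRTN the count was 482, but 897 with limma-voom and 193 with only the groups compared. For DSCC1 against SEPHS1 it was 53, but 212 with DESeq2 and 24 with limma-voom. Low counts limit the 4 members near the floor, whose differences were not detectable. Depth and exons shared with other genes may both bear on those counts.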

Other observations

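Some members that the main test did not call were called under other settings, and were chosen for display after their values were seen. MRPS9, a relative of a bacterial small subunit protein, had 14.6, 13.8 and 13.1 CPM in SALL4 libraries, against 9.42, 4.81 and 5.55 CPM in VRTN libraries, with no overlap. Its log2 difference was 1.07, and its adjusted p was 0.0287 with DESeq2 and 0.0358 with edgeR and no filter. MRPL9, a relative of a bacterial large subunit protein, had 28.0, 27.3 and 51.8 CPM in SALL4 libraries, against 48.4, 55.3 and 53.9 CPM in VRTN libraries. Only SALL4 replicate 3 was inside the range of the VRTN libraries, and the adjusted p was 0.00593 with limma-voom. Without SALL4 replicate 3 the log2 difference was -0.91 (adjusted p = 0.000271, edgeR). MRPS16, another small subunit protein with a bacterial relative, had 81.0, 69.4 and 70.7 CPM in SEPHS1 libraries, against 40.4 to 65.9 CPM in controls, with no overlap (log2 fold change 0.41). Its adjusted p was 0.0272 (edgeR) without Luciferase replicate 2.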
